A study of Homo sapiens with 9 samples.

Results

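The genes described here are 35 regulators and executors of apoptosis, chosen as a fixed list of symbols. They are drawn from the anti-apoptotic, pore-forming and BH3-only proteins of the BCL2 family, inhibitors of caspases, and caspases. Factors released from mitochondria with their partner APAF1, and receptors and adaptors of the death receptor route, are also listed. Genes set apart as p53 targets were left out, and BAX, BBC3, TNFRSF10B and FAS are not on the list. Listed genes, such as PMAIP1, can still be p53 targets. Counts and sums by role cover only the listed genes. All 35 symbols were present among the 61155 in each gene count table, and 34 of them were among the 17759 genes with enough reads to be tested. HRK, a BH3-only protein, had between 1 and 5 reads per library and was not tested. RNA-seq was made from MDA-MB-231, a human breast cancer cell line of the triple-negative, mesenchymal-like kind. KO1 and KO2 are 2 clones, each grown from a single cell after knockout of FBXL12, which encodes an F-box protein that recruits targets to a ubiquitin ligase. WT cells carried a scrambled control guide RNA, so cells of all groups had received a guide. Each of the 3 groups had 3 libraries, and the comparisons ask how FBXL12 knockout cells differ from control cells of the same line and how the clones differ from each other.

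Apoptosis runs by a mitochondrial and a death receptor route. In the mitochondrial route, BH3-only proteins sense stress and either block the anti-apoptotic BCL2 proteins or activate the pore formers of the outer membrane, and cytochrome c that leaks through the pore joins APAF1 to switch on caspase 9. In the death receptor route, ligands such as TRAIL bring FADD and caspase 8 together at the cell membrane, and the caspase-like protein CFLAR can block that step. The executioner caspases that both routes activate are held back by XIAP.

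Library totals lay between 77636004 and 87084329 reads in KO1, between 52427841 and 65630781 in KO2 and between 61685262 and 97243363 in WT. Values are CPM, the read count scaled to library size with edgeR's TMM factors, and each mean is given ± SD over 3 libraries. FBXL12 mRNA was 9.40 to 9.95 CPM in KO1, 5.33 to 6.36 CPM in KO2 and 21.4 to 23.3 CPM in WT. The summed level of 5 genes the line is known to express (VIM, CD44, KRT8, KRT18 and EGFR) was 5280 to 5410 CPM in KO1, 6700 to 6710 CPM in KO2 and 5030 to 5420 CPM in WT. ESR1, PGR and CDH1 together stayed at or below 0.256 CPM in every library, with PGR at 0 throughout. A list of 6 leukocyte and red cell markers summed to 1.60 to 1.87 CPM in KO1, 1.25 to 1.87 CPM in KO2 and 0.921 to 1.45 CPM in WT, with HBB at 0 in all libraries. Whether the libraries of a group stem from separate cultures is not in the labels, and the spread behind each p-value may then be technical. With 1 clone behind each KO group, a difference due to FBXL12 and a difference due to the single founder cell cannot be told apart within a clone. In bulk RNA, fewer cells making a transcript and less transcript per cell cannot be told apart either.

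BCL2A1 was higher in both clones, BAK1 was lower in both clones, and BMF was higher in KO1 and lower in KO2. Other members had these patterns too. BID, CASP8 and APAF1 also rose in both clones, DIABLO also fell in both, and XIAP, TNFRSF21 and CYCS also changed in opposite directions. The share of all tested genes with each of these patterns is not given here, so the patterns are not shown to be particular to the members. The 250 bases before the transcription start of BCL2A1, BAK1 and BMF are shown first, as examples picked by their changes. The sequences are RefSeq promoters of GRCh38.p14, written 5′ to 3′ on the strand of the gene, with capitals for each match to a searched motif. BCL2A1 lies on the minus strand (chr15:79971197-79971446), BAK1 on the minus strand (chr6:33580277-33580526), and BMF, of which the first of 2 listed promoters is shown, on the minus strand (chr15:40108880-40109129).
BCL2A1: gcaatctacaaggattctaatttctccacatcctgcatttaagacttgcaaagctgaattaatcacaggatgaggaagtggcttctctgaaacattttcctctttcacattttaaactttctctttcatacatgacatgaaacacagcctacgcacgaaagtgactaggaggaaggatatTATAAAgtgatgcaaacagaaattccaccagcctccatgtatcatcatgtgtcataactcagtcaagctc
BAK1: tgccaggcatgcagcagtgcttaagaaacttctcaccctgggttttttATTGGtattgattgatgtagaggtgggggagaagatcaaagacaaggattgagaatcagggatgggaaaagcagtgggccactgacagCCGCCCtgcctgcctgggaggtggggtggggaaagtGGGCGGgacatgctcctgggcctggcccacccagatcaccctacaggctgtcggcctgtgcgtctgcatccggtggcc
BMF: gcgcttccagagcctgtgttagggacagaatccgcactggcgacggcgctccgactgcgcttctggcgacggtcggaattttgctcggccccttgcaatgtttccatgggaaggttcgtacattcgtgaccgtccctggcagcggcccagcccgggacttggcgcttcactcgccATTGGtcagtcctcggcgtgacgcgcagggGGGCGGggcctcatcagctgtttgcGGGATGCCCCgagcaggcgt
The letters of these windows differ in kind. The BCL2A1 window had 38.8% G and C, against a median of 58.0% over 35116 RefSeq promoters, and its capitals mark a TATA box 70 bases before the RefSeq start. GENCODE 29 places the start of the BCL2A1 gene further upstream, at 79971446, so in that annotation the window lies inside the gene. The BAK1 window had 58.0% G and C and no TATA box. Its capitals mark a CCAAT box on the opposite strand 202 bases before the start and GC boxes 114 bases (opposite strand) and 78 bases before it. The BMF window had 65.2% G and C, with a CCAAT box on the opposite strand at 75 bases, a GC box at 45 bases and an NF-kB consensus match at 20 bases before the start. The motifs searched on both strands were TATAAA for the TATA box, CCAAT for the CCAAT box, GGGCGG for the GC box, TGAGTCA for the AP-1 site and the NF-kB consensus. Of all promoters of this length, 10.7% held the TATA box, 32.0% the CCAAT box, 42.6% the GC box, 4.20% the AP-1 site and 9.96% the NF-kB consensus. Entries existed for 28 of the 35 members, and a match is only a match of letters.

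In KO1 against WT, the pore formers BAK1 and BOK fell, while BCL2A1 and 5 BH3-only genes, PMAIP1 (NOXA), BMF, BIK, BCL2L11 (BIM) and BID, rose. Of the 34 tested members, 13 (38.2%) rose and 5 (14.7%) fell, against 18.0% of all tested genes higher and 16.8% lower. In KO2 against WT, BCL2A1 rose, caspase 8, caspase 10 and CFLAR rose together, and BCL2, XIAP, AIFM1, BMF and BAK1 fell. Here 12 members (35.3%) rose and 9 (26.5%) fell, against 24.7% of all tested genes higher and 24.7% lower. Calls are edgeR quasi-likelihood tests with Benjamini-Hochberg adjustment over the 17759 genes at an adjusted p under 0.05. Each adjusted p below is from this fit unless another setting, such as a removed GC trend or a left-out library, is named with it. KO1 and KO2 were compared with the same WT libraries.

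The sizes of these changes were close to those of other genes. The median log2 change of the members was 0.10 in KO1 against WT and 0.00 in KO2 against WT, and the median size regardless of sign was 0.20 in KO1, against 0.21 over all tested genes, and 0.22 in KO2, against 0.29 over all tested genes. A log2 change of at least 0.5 in size was fitted for 6 members (17.6%) in KO1, against 18.7% of all tested genes, and for 12 members (35.3%) in KO2, against 30.9% of all tested genes. The members are mostly well expressed. Among genes with at least 1 CPM in 3 libraries, which leaves out BIK, HRK and TNFSF10, 37.5% of 32 members were higher and 15.6% lower in KO1, against 22.4% of 13151 genes higher and 20.7% lower. In KO2, 34.4% of these members were higher and 28.1% lower, against 28.1% of genes higher and 3946 of the 13151 lower.

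**Figure D1:**
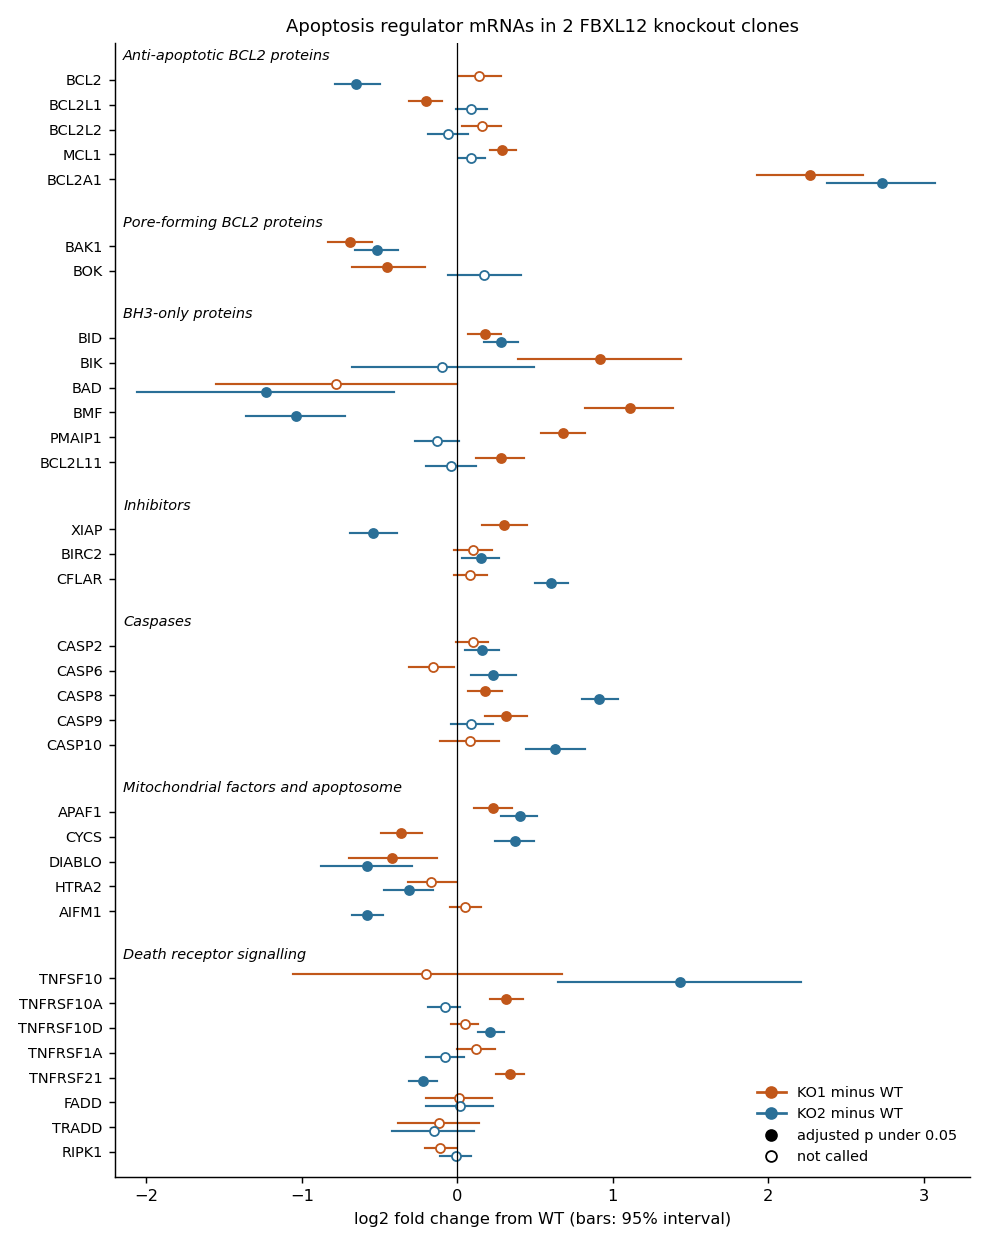
Fitted log2 change of each tested member, grouped by role, for KO1 minus WT and KO2 minus WT, with bars for the 95% interval of the fit and filled points for an adjusted p under 0.05. BCL2A1 lies far to the right in both comparisons (2.27 in KO1 and 2.73 in KO2), BAK1 lies left of 0 in both (-0.69 and -0.52), and BMF lies on opposite sides (1.11 and -1.04).

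Among the 5 anti-apoptotic BCL2 genes, BCL2A1, which encodes the BFL-1 protein and is known as an NF-kB target in other cells, changed most. BCL2A1 had 7.46, 10.5 and 8.64 CPM in the KO1 libraries, 11.6, 11.3 and 13.5 CPM in the KO2 libraries and 2.25, 1.61 and 1.56 CPM in the WT libraries. All 6 KO libraries lay above all WT libraries, and these values rest on 582 to 856 reads per KO library and 98 to 221 reads per WT library. The log2 change was 2.27 ± 0.16 (SE, adjusted p = 2.74e-07), a 4.83-fold higher level, in KO1. It was 2.73 ± 0.16 (adjusted p = 1.49e-08), a 6.62-fold higher level, in KO2. BCL2A1 was thus the member with the largest fitted change in both comparisons with WT.

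MCL1, a short-lived guardian protein that NOXA targets, rose by a modest amount in KO1. Its levels were 512, 541 and 537 CPM in KO1, 448, 456 and 478 CPM in KO2 and 428, 424 and 446 CPM in WT. The KO1 libraries lay above all others, and the KO2 libraries lay above the WT libraries by a narrow margin. The log2 change was 0.29 ± 0.04 (adjusted p = 4.77e-05) in KO1 and 0.09 ± 0.04 (adjusted p = 0.0709) in KO2. BCL2L1, which encodes BCL-XL, had 373, 333 and 368 CPM in KO1, 445, 444 and 425 CPM in KO2 and 390, 428 and 417 CPM in WT. The KO1 libraries lay below all others, whereas KO2 and WT overlapped. BCL2L1 fell in KO1 (log2 change -0.20 ± 0.05, adjusted p = 0.00475) and was not called in KO2 (0.09 ± 0.05, adjusted p = 0.144). After removal of a smooth trend of log2 change on the GC content of genes, the KO1 change was -0.04 (adjusted p = 0.364), and the KO2 change was 0.24 (adjusted p = 5.01e-07). Of the exon bases of BCL2L1, 43.0% overlap exons of the antisense gene ABALON, and whether counting used strand was not stated in the sources used here.

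BCL2, the founding member of the family, had 21.2, 20.3 and 21.1 CPM in KO1, 12.0, 11.7 and 12.4 CPM in KO2 and 18.1, 18.4 and 20.2 CPM in WT. KO2 stood below every other library without overlap. BCL2 fell in KO2 (log2 change -0.65 ± 0.07, adjusted p = 1.15e-06), while KO1 was at 0.14 ± 0.06 (adjusted p = 0.101). BCL2L2, which encodes BCL-W, averaged 37.3 ± 1.18 CPM in KO1, 32.2 ± 2.59 CPM in KO2 and 33.5 ± 0.735 CPM in WT and was called in neither comparison with WT (adjusted p = 0.0574 in KO1 and 0.459 in KO2). Thus 2 of the 5 anti-apoptotic genes rose and 1 fell in KO1, against 18.0% and 16.8% of all tested genes, and 1 rose and 1 fell in KO2, against 24.7% in each direction.

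The pore formers BAK1 and BOK were lower in KO1. BAK1, which encodes the BAK protein of the outer mitochondrial membrane, had 32.1, 27.0 and 29.2 CPM in KO1, 32.2, 34.7 and 32.6 CPM in KO2 and 45.4, 50.4 and 46.6 CPM in WT. Every KO library lay below every WT library. The log2 change was -0.69 ± 0.07 (adjusted p = 1.64e-06) in KO1 and -0.52 ± 0.07 (adjusted p = 1.07e-05) in KO2. With the GC trend removed, the values were -0.48 in KO1 and -0.30 in KO2, still called (adjusted p = 4.43e-09 and 2.92e-06). BOK, a BAK-like protein found largely at the endoplasmic reticulum, had 28.7, 23.8 and 27.2 CPM in KO1, 42.9, 43.2 and 36.5 CPM in KO2 and 31.8, 41.3 and 35.8 CPM in WT. KO1 lay below the other groups, while KO2 and WT overlapped. BOK fell in KO1 (log2 change -0.45 ± 0.11, adjusted p = 0.00729) and was not called in KO2 (0.17 ± 0.10, adjusted p = 0.198). With the GC trend removed, BOK was at -0.05 in KO1 (adjusted p = 0.448) and at 0.67 in KO2 (adjusted p = 8.91e-11).

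Of the 6 tested BH3-only genes, 4 were higher in KO1 than in KO2 and none was lower in the direct test given further on. Of all tested genes, 23.9% were higher and 24.9% lower in that test. In KO1, 5 of the 6 tested rose and none fell, leaving BAD as the only one of the 6 not called. In KO2, 1 of 6 rose and 2 fell. Of all tested genes, 18.0% rose and 16.8% fell in KO1, and 24.7% rose and 24.7% fell in KO2. BMF, whose protein is held on the cytoskeleton until cells detach or are stressed, had 4.38, 5.58 and 4.59 CPM in KO1, 1.05, 1.17 and 1.06 CPM in KO2 and 2.26, 1.96 and 2.54 CPM in WT. The 3 groups were fully separated, with KO1 highest and KO2 lowest. BMF rose in KO1 (log2 change 1.11 ± 0.13, adjusted p = 1.41e-05) and fell in KO2 (-1.04 ± 0.15, adjusted p = 3.68e-05).

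PMAIP1, which encodes NOXA, had 85.7, 101 and 88.0 CPM in KO1, 49.5, 54.0 and 53.1 CPM in KO2 and 61.0, 54.3 and 56.2 CPM in WT. KO1 stood above all other libraries, and KO2 lay just below WT without overlap. PMAIP1 rose in KO1 (log2 change 0.68 ± 0.06, adjusted p = 1.7e-06), while KO2 was at -0.13 ± 0.07 (adjusted p = 0.107). BIK, a BH3-only protein of the endoplasmic reticulum, had 1.35, 0.823 and 1.51 CPM in KO1, 0.555, 0.759 and 0.505 CPM in KO2 and 0.590, 0.806 and 0.572 CPM in WT. These values rest on 29 to 132 reads per library, and the lowest KO1 library barely exceeded the highest WT library. BIK rose in KO1 (log2 change 0.92 ± 0.25, adjusted p = 0.00942), a call lost without KO1 replicate 3 (0.75, adjusted p = 0.0569), and was at -0.10 ± 0.27 in KO2 (adjusted p = 0.801).

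BAD, a BH3-only protein kept inactive by phosphorylation, had 2.09, 1.16 and 1.71 CPM in KO1, 1.32, 1.70 and 0.599 CPM in KO2 and 2.25, 3.65 and 2.67 CPM in WT. Each KO library lay below each WT library, with 38 to 163 reads per KO library and 168 to 222 reads per WT library. BAD fell in KO2 (log2 change -1.23 ± 0.36, adjusted p = 0.0200) and was not called in KO1 (-0.78 ± 0.34, adjusted p = 0.113). Without WT replicate 2 the KO2 change was -1.02 (adjusted p = 0.0565), and with the GC trend removed it was -0.74 (adjusted p = 0.00534). Of the exon bases of BAD, 23.7% overlap GPR137 on the opposite strand. BCL2L11, which encodes BIM, averaged 12.6 ± 0.504 CPM in KO1, 10.1 ± 0.413 CPM in KO2 and 10.3 ± 0.376 CPM in WT and rose in KO1 (log2 change 0.28, adjusted p = 0.00801). BID, which caspase 8 cuts to link the routes, averaged 36.9 ± 1.13 CPM in KO1, 39.6 ± 1.10 CPM in KO2 and 32.6 ± 0.893 CPM in WT. BID rose in KO1 (0.18, adjusted p = 0.0141) and in KO2 (0.28, adjusted p = 0.000303). Without KO1 replicate 3, the adjusted p of BID in KO1 was 0.0528.

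**Figure D2:**
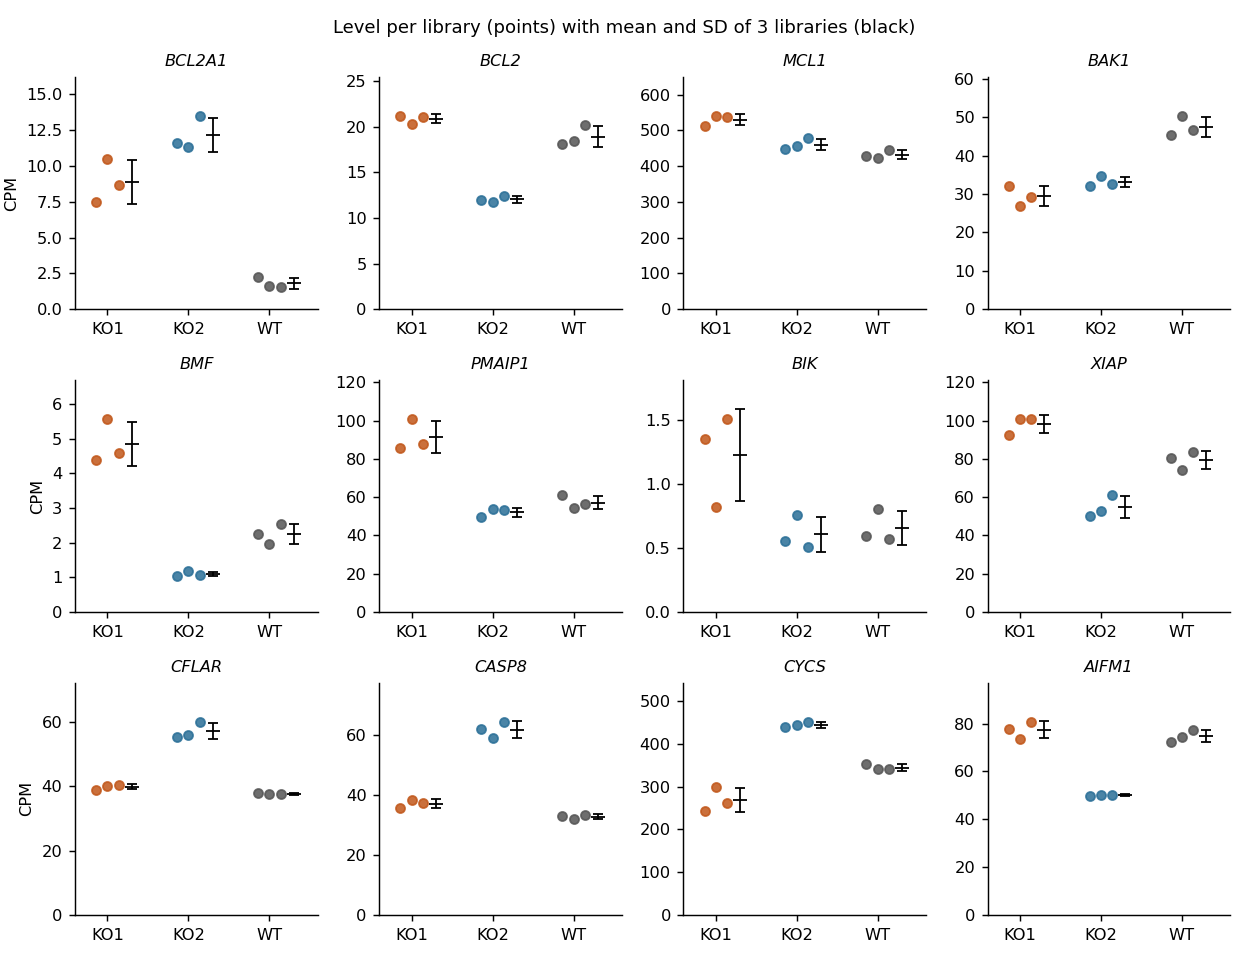
TMM-scaled CPM of each library (points) for 12 members on axes that start at 0, with KO1, KO2 and WT from left to right and a black mark for the mean and SD of 3 libraries. BCL2A1 is higher in all 6 KO libraries than in WT, BAK1 is lower in all 6, and BMF separates into 3 levels with means of 4.85 CPM in KO1, 1.09 CPM in KO2 and 2.25 CPM in WT.

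CFLAR, CASP10 and CASP8 lie side by side on chromosome 2 (GENCODE 29, GRCh38, from 201116104 to 201287711, plus strand), and all 3 rose in KO2. CASP8, the initiator caspase of the death receptor route, had 35.5, 38.3 and 37.3 CPM in KO1, 61.8, 58.9 and 64.4 CPM in KO2 and 32.9, 31.9 and 33.4 CPM in WT. KO2 stood well above the other groups, and KO1 lay slightly above WT without overlap. CASP8 rose in KO2 (log2 change 0.91 ± 0.05, adjusted p = 2.04e-09) and by less in KO1 (0.18 ± 0.05, adjusted p = 0.0155). The smaller KO1 change missed the threshold without WT replicate 2 (0.17, adjusted p = 0.0514). CASP10, a close relative of caspase 8 in human cells, had 9.55, 10.7 and 11.2 CPM in KO1, 15.4, 14.9 and 15.8 CPM in KO2 and 11.2, 9.30 and 9.30 CPM in WT. Only KO2 was separate from WT, with a log2 change of 0.63 ± 0.09 (adjusted p = 2.78e-05), against 0.08 ± 0.09 (adjusted p = 0.518) for KO1. CFLAR, the caspase-like inhibitor c-FLIP, had 39.0, 40.2 and 40.5 CPM in KO1, 55.5, 56.0 and 60.2 CPM in KO2 and 37.9, 37.5 and 37.5 CPM in WT. Its KO2 libraries were again apart from all others, and the change was 0.60 ± 0.05 (adjusted p = 8.3e-08) in KO2 and 0.08 ± 0.05 (adjusted p = 0.201) in KO1. An inhibitor and its target caspases thus had raised transcripts in the same clone.

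The other inhibitors were XIAP, which binds active caspases, and BIRC2, the ubiquitin ligase cIAP1 of TNF receptor complexes. XIAP had 92.6, 101 and 101 CPM in KO1, 50.2, 52.7 and 61.1 CPM in KO2 and 80.4, 74.4 and 83.5 CPM in WT. The groups did not overlap, with KO1 highest and KO2 lowest. XIAP rose in KO1 (log2 change 0.30 ± 0.07, adjusted p = 0.00349) and fell in KO2 (-0.54 ± 0.07, adjusted p = 1.9e-05). BIRC2 averaged 199 ± 14.8 CPM in KO1, 206 ± 11.9 CPM in KO2 and 186 ± 8.29 CPM in WT. Its KO2 change of 0.15 was close to the threshold (adjusted p = 0.044) and lost the call in 8 of 20 alternative settings, among them without WT replicate 2 or 3, KO1 replicate 3, or KO2 replicate 1 or 3, where it lay between 0.09 (adjusted p = 0.212) and 0.15 (adjusted p = 0.0638).

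Of the 5 caspases, 2 rose in KO1, against 18.0% of all tested genes, and 4 rose in KO2, against 24.7% of all tested genes. None of the 5 fell in either comparison, against 16.8% of all tested genes lower in KO1 and 24.7% lower in KO2. CASP9, the initiator that APAF1 activates, averaged 23.1 ± 0.922 CPM in KO1, 19.8 ± 1.09 CPM in KO2 and 18.6 ± 0.648 CPM in WT. CASP9 rose in KO1 (log2 change 0.31 ± 0.06, adjusted p = 0.00133) and was at 0.09 ± 0.06 in KO2 (adjusted p = 0.25). CASP6, an executioner, averaged 16.2 ± 1.15 CPM in KO1, 21.3 ± 0.475 CPM in KO2 and 18.1 ± 0.958 CPM in WT and rose in KO2 (0.23 ± 0.07, adjusted p = 0.0109). In KO1, CASP6 was at -0.16 (adjusted p = 0.0803) and was called lower with the GC trend removed (-0.18, adjusted p = 0.0135). CASP2, an initiator tied to DNA damage and cell division, averaged 56.7 ± 2.17 CPM in KO1, 59.4 ± 1.33 CPM in KO2 and 53.1 ± 2.61 CPM in WT. It rose in KO2 by a log2 change of 0.16 ± 0.05 (adjusted p = 0.0153). The CASP6 call was lost without WT replicate 2 (0.19, adjusted p = 0.0607) and without KO2 replicate 1 (0.21, adjusted p = 0.0542). The CASP2 call was lost without WT replicate 1 (0.12, adjusted p = 0.0817), KO2 replicate 1 (0.15, adjusted p = 0.0603) or KO2 replicate 3 (0.14, adjusted p = 0.0543).

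The mitochondrial factors and APAF1 did not move together. CYCS, which encodes cytochrome c, had 244, 300 and 262 CPM in KO1, 439, 443 and 452 CPM in KO2 and 353, 341 and 340 CPM in WT. All 3 groups were separate, in the order KO2, WT and KO1. CYCS fell in KO1 (log2 change -0.36 ± 0.06, adjusted p = 0.000347) and rose in KO2 (0.37 ± 0.06, adjusted p = 0.000136). CYCS has processed pseudogenes of near-identical sequence, and the counting of reads shared with them was not stated in the sources used here. AIFM1, a mitochondrial flavoprotein that can move to the nucleus, had 77.9, 73.6 and 80.8 CPM in KO1, 49.7, 50.3 and 50.2 CPM in KO2 and 72.4, 74.5 and 77.3 CPM in WT. KO1 and WT overlapped while KO2 lay below both, and AIFM1 fell in KO2 (-0.58 ± 0.05, adjusted p = 1.06e-07) with 0.05 ± 0.05 in KO1 (adjusted p = 0.43).

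DIABLO, whose product SMAC displaces XIAP from caspases, had 2.22, 2.20 and 2.56 CPM in KO1, 2.32, 2.08 and 1.85 CPM in KO2 and 2.91, 3.57 and 2.88 CPM in WT. Both clones lay below WT without overlap. DIABLO fell in KO1 (log2 change -0.42 ± 0.13, adjusted p = 0.0239) and in KO2 (-0.58 ± 0.14, adjusted p = 0.00246). The KO1 call was lost without KO1 replicate 1 (-0.37, adjusted p = 0.0722), KO1 replicate 2 (-0.38, adjusted p = 0.0655) or WT replicate 2 (-0.30, adjusted p = 0.149). HTRA2, a protease that also binds XIAP, averaged 24.2 ± 2.12 CPM in KO1, 21.9 ± 1.14 CPM in KO2 and 27.2 ± 1.76 CPM in WT. HTRA2 fell in KO2 (-0.31 ± 0.07, adjusted p = 0.00234), a change of -0.03 (adjusted p = 0.59) with the GC trend removed. Its exons overlap those of AUP1 (16.1% of bases) and LOXL3 (20.8%). APAF1, the scaffold of the apoptosome, averaged 51.2 ± 1.38 CPM in KO1, 57.3 ± 3.99 CPM in KO2 and 43.6 ± 1.70 CPM in WT. APAF1 rose in KO1 (0.23 ± 0.06, adjusted p = 0.00435) and in KO2 (0.40 ± 0.06, adjusted p = 2.8e-05).

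In the death receptor route, 2 of 8 members (25.0%) rose in KO1 and none fell, against 18.0% of all tested genes higher and 16.8% lower. In KO2, 2 members (25.0%) rose and 1 (12.5%) fell, against 24.7% of all tested genes in each direction. TNFRSF21, death receptor 6, had 154, 146 and 150 CPM in KO1, 104, 102 and 101 CPM in KO2 and 114, 122 and 120 CPM in WT. The groups were separate, with KO1 highest and KO2 lowest. TNFRSF21 rose in KO1 (log2 change 0.34 ± 0.04, adjusted p = 1.89e-05) and fell in KO2 (-0.22 ± 0.04, adjusted p = 0.000546). TNFSF10, which encodes the ligand TRAIL, had 0.154, 0.253 and 0.161 CPM in KO1, 0.383, 0.607 and 0.757 CPM in KO2 and 0.152, 0.197 and 0.318 CPM in WT. These values rest on 12 to 20 reads in each KO1 and WT library and 20 to 48 reads in each KO2 library, and KO2 lay above the others. TNFSF10 rose in KO2 (1.43 ± 0.37, adjusted p = 0.00438) and was at -0.20 ± 0.41 in KO1 (adjusted p = 0.742).

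Of the TRAIL receptors on the list, a death-signalling one rose in KO1 and a decoy rose in KO2. TNFRSF10A, which carries the death signal of TRAIL, averaged 51.7 ± 1.68 CPM in KO1, 39.2 ± 0.744 CPM in KO2 and 41.6 ± 1.38 CPM in WT and rose in KO1 (log2 change 0.31 ± 0.05, adjusted p = 0.000154). TNFRSF10D, a decoy receptor with a truncated death domain, averaged 92.3 ± 1.04 CPM in KO1, 104 ± 2.75 CPM in KO2 and 89.3 ± 2.02 CPM in WT and rose in KO2 (0.21 ± 0.04, adjusted p = 0.000464). The remaining 4 members, TNFRSF1A (TNF receptor 1) and the adaptors and kinase FADD, TRADD and RIPK1, were called in neither comparison with WT. For FADD the 95% interval of the log2 change ran from -0.20 to 0.22 in KO1 and from -0.20 to 0.23 in KO2. For RIPK1 it ran from -0.21 to -0.01 in KO1 and from -0.11 to 0.09 in KO2. TNFRSF1A was at 0.12 in KO1 (adjusted p = 0.118) and -0.08 in KO2 (adjusted p = 0.263). With the GC trend removed, TNFRSF1A was called in both, at 0.30 in KO1 (adjusted p = 1.23e-07) and 0.09 in KO2 (adjusted p = 0.018). TRADD was at -0.12 in KO1 (adjusted p = 0.494) and -0.15 in KO2 (adjusted p = 0.326), and with the GC trend removed at 0.26 in KO1 (adjusted p = 0.061) and 0.31 in KO2 (adjusted p = 0.0187).

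More members were called between the clones than between either clone and WT. In KO1 against KO2, 13 of 34 members (38.2%) were higher and 12 (35.3%) lower, against 23.9% of all tested genes higher and 24.9% lower. Among genes with at least 1 CPM in 3 libraries, 37.5% of 32 members were higher and 34.4% lower, against 28.8% and 27.9% of 13151 genes. The median size among these was 0.31 for the members and 0.24 for the genes. Over all tested members, the median size of the difference was 0.36 on the log2 scale, against 0.29 for all tested genes. Of the tested members, 13 (38.2%) reached 0.5, against 31.3% of all tested genes. BMF differed most, with a KO1 level 4.43-fold that of KO2 (log2 difference 2.15 ± 0.15, adjusted p = 7.68e-09). TNFSF10 was lower in KO1 (-1.63 ± 0.37, adjusted p = 0.00163). BIK was higher in KO1 (1.01 ± 0.25, adjusted p = 0.00376).

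Another 10 members differed between the clones by at least 0.5 on the log2 scale. XIAP (log2 difference 0.84 ± 0.07, adjusted p = 1.66e-07), PMAIP1 (0.81 ± 0.06, adjusted p = 5.96e-08), BCL2 (0.79 ± 0.07, adjusted p = 8.7e-08), AIFM1 (0.63 ± 0.05, adjusted p = 2.67e-08) and TNFRSF21 (0.55 ± 0.04, adjusted p = 2.7e-08) were higher in KO1. CASP8 (-0.74 ± 0.05, adjusted p = 1.22e-08), CYCS (-0.73 ± 0.06, adjusted p = 1.44e-07), BOK (-0.62 ± 0.11, adjusted p = 0.000514), CASP10 (-0.55 ± 0.09, adjusted p = 8.72e-05) and CFLAR (-0.52 ± 0.05, adjusted p = 2.83e-07) were lower in KO1. BCL2A1, which rose in both clones, and BAK1, which fell in both, also differed between them: BCL2A1 by -0.45 ± 0.14 (adjusted p = 0.016) and BAK1 by -0.17 ± 0.07 (adjusted p = 0.0438). The BCL2A1 difference was -0.33 without KO1 replicate 1 (adjusted p = 0.0652), -0.42 without KO1 replicate 3 (adjusted p = 0.0647) and -0.37 without KO2 replicate 3 (adjusted p = 0.0711). The BAK1 difference lost its call in 12 of 20 alternative settings, which include leaving out any library but KO1 replicate 1, with values from -0.18 to -0.10. APAF1, which rose in both clones, differed by -0.16 ± 0.06 (adjusted p = 0.0238), a call lost without any 1 of the KO1 libraries or KO2 replicate 3 (-0.17 to -0.10).

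MDA-MB-231 is aneuploid, and clones of such a line can differ in copy number, so the change of each member was set beside that of its chromosomal neighbours, up to 20 tested protein-coding genes, 10 on each side. Several changes in KO2 ran in the direction of the neighbours. In KO2 against WT, all 20 neighbours of CASP8, of CASP10 and of CFLAR were higher, with medians of 0.49, 0.50 and 0.52 on the log2 scale beside member changes of 0.91, 0.63 and 0.60. These 3 genes are among one another's neighbours. The neighbours of XIAP and AIFM1 on the X chromosome had medians of -0.60 and -0.62 in KO2, beside member changes of -0.54 and -0.58. BCL2 and PMAIP1, both on chromosome 18, had neighbour medians of -0.49 and -0.52 in KO2 and of 0.33 and 0.34 in KO1. BCL2 itself changed by -0.65 in KO2 and 0.14 in KO1, and PMAIP1 by -0.13 in KO2 and 0.68 in KO1. CYCS on chromosome 7 had a neighbour median of 0.47 in KO2, beside its own 0.37, and of -0.04 in KO1, beside its own -0.36.

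BAK1 on chromosome 6 shared the direction of its neighbours in both clones, whose medians were -0.52 in KO1 and -0.46 in KO2 beside its own -0.69 and -0.52. For BOK on chromosome 2, 14 of 15 neighbours were lower in KO1, with a median of -0.31 beside its own -0.45. Its neighbour median was 0.08 in KO2, beside its own 0.17, and -0.48 in KO1 against KO2, beside its own -0.62. BCL2A1 on chromosome 15 exceeded its neighbours, whose medians were 0.37 in KO1 and -0.39 in KO2. BMF, on the same chromosome, had neighbour medians of 0.32 in KO1 and -0.26 in KO2, beside its own 1.11 and -1.04. BIRC2 did not follow its neighbours in KO1: all 20 were higher, with a median of 0.53, while BIRC2 was at 0.10. Over the 33 tested members with a position, the member and its neighbour median had Pearson's r of 0.57 and Spearman's rho of 0.52 in KO1 against WT, and r of 0.35 and rho of 0.64 in KO2 against WT. Over 13130 coding genes r was 0.30 and rho 0.46 in KO1, and r was 0.34 and rho 0.43 in KO2. The member had the sign of its neighbour median in 22 of 33 cases in KO1 and in 22 of 33 in KO2, against 68.4% and 65.2% of the coding genes in KO1 and KO2. In KO1 against KO2 it did so in 18 of 33, against 63.3% of the coding genes, with r of 0.54 and rho of 0.42 for the members and r of 0.35 and rho of 0.42 for the coding genes. These correlations are across genes, which share libraries and neighbours and are not replicates. Copy number was not measured, and its part in these changes was not tested.

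**Figure D3:**
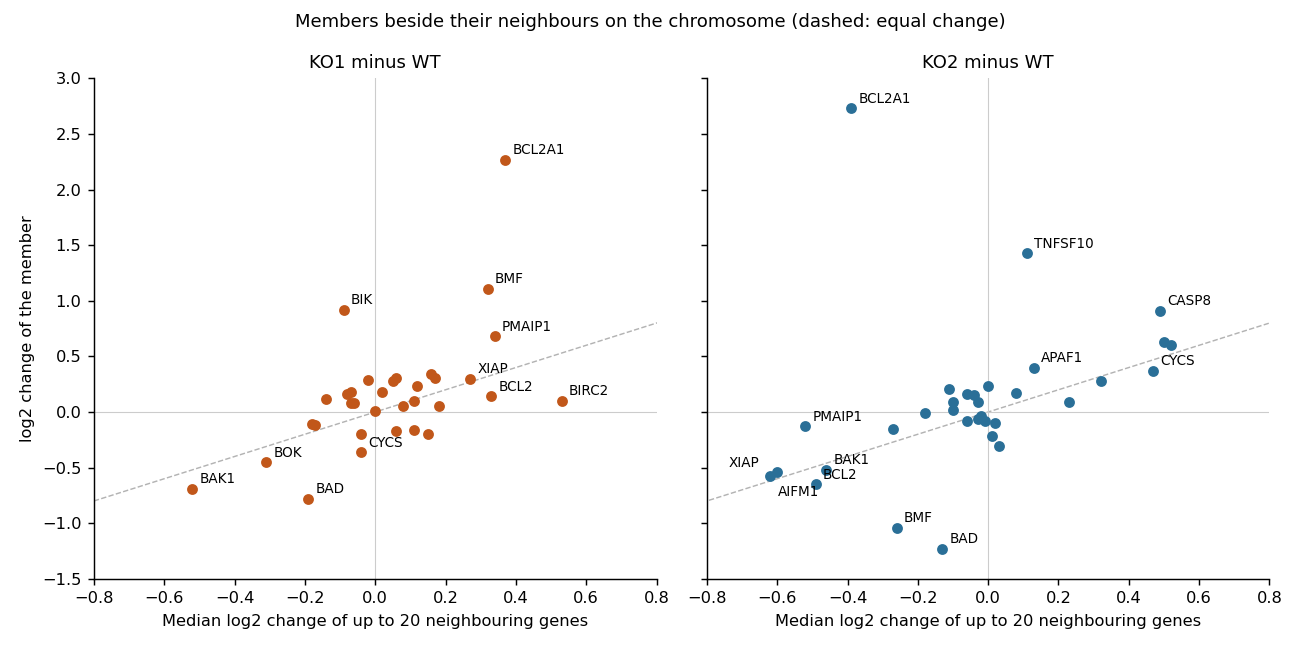
Log2 change of each positioned member (vertical axis) against the median log2 change of its neighbouring coding genes (horizontal axis), for KO1 minus WT on the left and KO2 minus WT on the right, with a dashed line of equal change. XIAP, AIFM1, BCL2 and CYCS lie near the line in KO2, while BCL2A1 lies far above it in both panels.

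Levels of different members can be set beside each other only per length, here as CPM per kb of exon. MCL1 and BCL2L1 held most of the anti-apoptotic BCL2 transcript in every group. The 5 genes summed to 248 ± 4.24 CPM per kb in KO1, 257 ± 0.928 in KO2 and 234 ± 6.53 in WT. MCL1 made up 48.9 ± 1.67% of that level in KO1, 40.9 ± 1.27% in KO2 and 42.2 ± 1.16% in WT. BCL2L1 made up 43.5 ± 2.19% in KO1, 51.3 ± 1.45% in KO2 and 53.0 ± 1.38% in WT. By this measure, MCL1 had the larger share in KO1 and BCL2L1 the larger share in KO2 and WT. The length used is that of all annotated exons of a gene, not of the transcripts expressed. The fall of BCL2L1 in KO1 was not called with the GC trend removed (-0.04, adjusted p = 0.364), and its exons overlap those of ABALON. BCL2A1, despite its change, was 3.28 ± 0.596% in KO1, 4.33 ± 0.420% in KO2 and 0.710 ± 0.172% in WT.

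BAK1 and BOK summed to 23.1 ± 2.06 CPM per kb in KO1, 30.1 ± 1.75 in KO2 and 34.8 ± 2.95 in WT. This sum is not adjusted for GC content, and its order across groups may depend on that. With the GC trend removed, the log2 change from WT was -0.05 in KO1 and 0.67 in KO2 for BOK. For BAK1 it was -0.48 in KO1 and -0.30 in KO2. The listed BH3-only genes summed to 54.3 ± 2.98 CPM per kb in KO1, 35.3 ± 1.08 in KO2 and 37.3 ± 0.994 in WT. PMAIP1 alone gave 41.0 ± 3.68 in KO1, 23.4 ± 1.07 in KO2 and 25.6 ± 1.54 in WT. The caspases summed to 26.3 ± 0.384 CPM per kb in KO1, 32.7 ± 0.851 in KO2 and 25.3 ± 0.743 in WT. The death receptor members summed to 131 ± 2.68 CPM per kb in KO1, 114 ± 0.588 in KO2 and 117 ± 2.55 in WT, with TNFRSF21 the highest of them in KO1 and WT. No test was made of these sums. Exon bases shared with the gene that overlaps most came to 54.9% for FADD, 19.4% for BCL2L2, 10.9% for BCL2L11, 8.5% for BMF, 7.4% for BOK and 4.1% for BAK1.

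**Figure D4:**
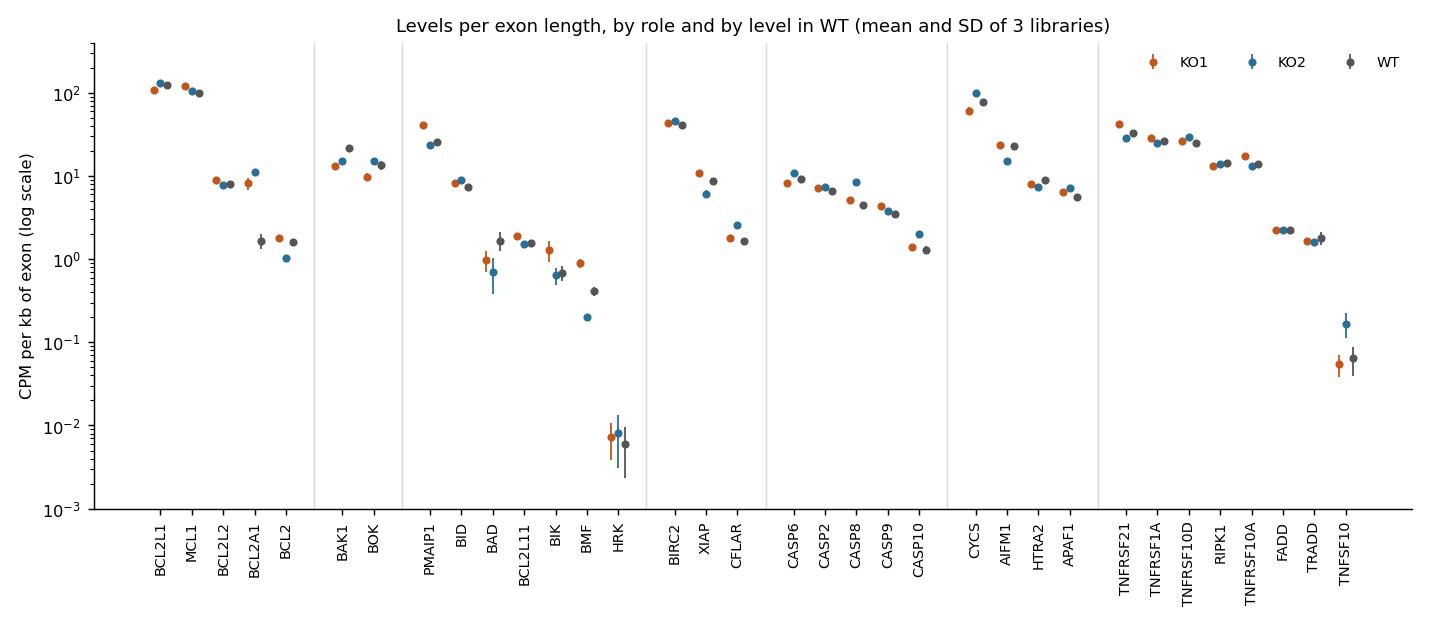
Level of each member with an exon length in CPM per kb on a log axis, grouped by role, with points for the means of KO1, KO2 and WT and bars for the SD over 3 libraries. MCL1 and BCL2L1 stand at the top of the anti-apoptotic genes, PMAIP1 at the top of the BH3-only genes, and HRK lies at the bottom.

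A second list held 45 other genes of apoptosis and related death pathways, of which 35 were tested. In KO1 against WT, 11 of the 35 rose (31.4%, against 18.0% of all tested genes) and 7 fell (against 16.8% of all tested genes), with a median log2 change of 0.01. In KO2 against WT, 10 rose (28.6%) and 11 fell (31.4%), against 24.7% of all tested genes in each direction, with a median of 0.02. In KO1 against KO2, 13 were higher (37.1%, against 23.9% of all tested genes) and 10 lower (28.6%, against 24.9%), with a median of 0.02. BNIP2, a BCL2-interacting protein, averaged 163 ± 9.16 CPM in KO1, 48.8 ± 2.20 CPM in KO2 and 126 ± 5.04 CPM in WT. BNIP2 fell in KO2 (log2 change -1.37 ± 0.05, adjusted p = 2.21e-11), where its neighbours had a median of -0.95, and rose in KO1 (0.37, adjusted p = 5.12e-05). TNFRSF11B, the secreted receptor osteoprotegerin that can bind TRAIL, averaged 17.7 ± 1.07 CPM in KO1, 6.46 ± 0.450 CPM in KO2 and 8.59 ± 0.802 CPM in WT. It rose in KO1 (1.04 ± 0.09, adjusted p = 4.07e-07) and fell in KO2 (-0.41 ± 0.09, adjusted p = 0.00146).

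CRADD, an adaptor of caspase 2, fell in both clones, by log2 changes of -0.47 in KO1 (adjusted p = 3.51e-05) and -0.50 in KO2 (adjusted p = 7.55e-06). RNF31 and SHARPIN encode subunits of the linear ubiquitin ligase of the TNF receptor complex. RNF31 fell in KO1 (-0.84 ± 0.24, adjusted p = 0.0137) and KO2 (-0.94 ± 0.25, adjusted p = 0.00625) at mean levels of 0.448 ± 0.0675 CPM in KO1, 0.417 ± 0.131 CPM in KO2 and 0.805 ± 0.0325 CPM in WT. SHARPIN fell in KO2 (-1.08 ± 0.14, adjusted p = 0.000109), beside a neighbour median of -0.76, and was at -0.27 in KO1 (adjusted p = 0.139). TRAF1, which binds BIRC2 in TNF receptor complexes, rose in KO1 (0.57 ± 0.07, adjusted p = 1.23e-05) and was at 0.12 in KO2 (adjusted p = 0.154). BIRC3, the cIAP2 gene next to BIRC2, rose in KO1 (0.48 ± 0.08, adjusted p = 0.00132) with a neighbour median of 0.48 and was at -0.21 in KO2 (adjusted p = 0.0603).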

How the data were processed

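RNA-seq was made from 9 libraries of MDA-MB-231 cells, 3 each of KO1, KO2 and WT, with TruSeq libraries per the labels' protocols. The authors deposited 1 table of raw read counts per gene and library, with 61155 gene symbols. Trim Galore and HISAT2 are named in the submitters' processing notes, without versions; the sources used here do not give the human build, gene annotation, counter or use of strand. Every symbol entered the library totals given with the results.

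Counts were filtered with filterByExpr, scaled with TMM and fitted in edgeR 4.0.16 (R 4.3.3) with a robust quasi-likelihood model of 3 group means over all 9 libraries, without covariates. Each KO group was contrasted with WT, and KO1 with KO2, with Benjamini-Hochberg adjustment over 17759 genes and a threshold of 0.05. The biological coefficient of variation was 7.46%. The SE was taken from the log2 change and its F value. A floor of 3 counts lay between 0.0305 and 0.0574 CPM per library; intervals and floors cover only what the libraries sample. The fitting code was tested on simulated data. Replicates of a group differed by more than counting noise (chi-square per degree of freedom 5.85 to 28.67), so none was counted as a duplicate.

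Positions, exon lengths and neighbours came from GENCODE 29 on GRCh38, which matched 34 of 35 members uniquely (DIABLO had none); the authors' annotation may differ. GC content was known for 97.2% of tested genes, and an alternative removed a smooth trend of log2 change on it (lowess, span 0.3). Other alternatives were RLE and upper quartile factors, library totals, no filter, 1 CPM in 3 libraries, DESeq2 1.42.0, limma-voom 3.58.1, a replicate block, fits of the 6 libraries compared, and leaving out each library in turn. The shares among genes of at least 1 CPM were added after the data were seen.

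The members and lists were chosen with earlier results of these data known. Members got values per library when called in any contrast with a log2 change of at least 0.5 in size, or as BCL2, BCL2L1 or MCL1; from the second list, up to 4 such genes a contrast were named by smallest p. A gene of the marker lists is not reported here.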

Additional observations from a re-analysis of the deposited data

Results flagged for a closer look

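For 25 of the 34 tested members, the change from WT differed between the clones by a test of the difference itself, the contrast KO1 minus KO2 in edgeR's quasi-likelihood fit at an adjusted p under 0.05. Of all tested genes, 23.9% were higher and 24.9% lower in the same contrast, against 38.2% and 35.3% of the members. Among genes with at least 1 CPM in 3 libraries, 28.8% were higher and 27.9% lower, against 37.5% and 34.4% of the members. Because WT cancels in this contrast, it equals the direct difference between KO1 and KO2. The log2 difference was above 0, with KO1 above KO2, for 13 members: 2.15 for BMF, 1.01 for BIK, 0.84 for XIAP, 0.81 for PMAIP1, 0.79 for BCL2, 0.63 for AIFM1, 0.55 for TNFRSF21, 0.40 for TNFRSF10A, 0.32 for BCL2L11, 0.22 for CASP9, 0.21 for BCL2L2, 0.20 for MCL1 and 0.20 for TNFRSF1A. It was below 0 for 12 members: -1.63 for TNFSF10, -0.74 for CASP8, -0.73 for CYCS, -0.62 for BOK, -0.55 for CASP10, -0.52 for CFLAR, -0.45 for BCL2A1, -0.40 for CASP6, -0.29 for BCL2L1, -0.17 for BAK1, -0.17 for TNFRSF10D and -0.16 for APAF1. BMF, XIAP, TNFRSF21 and CYCS were called in opposite directions against WT in KO1 and KO2, and the share of all tested genes called so is not given here. BMF, XIAP and TNFRSF21 rose in KO1 and fell in KO2, and CYCS fell in KO1 and rose in KO2.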

How the results depend on the processing

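Over 20 alternative settings, the number of members called higher in KO1 against WT lay between 11 and 15, and higher in KO2 against WT between 9 and 18. The highest KO2 counts, 17 and 18 of 33 members, came with the GC trend removed, without and with the replicate block. The share of all tested genes called in each alternative setting is not given here. Counts per setting therefore do not tell whether members moved more than other genes. With the GC trend removed, with or without the replicate block, 3 members were lower in KO1 against WT in place of 5, as BCL2L1 and BOK were no longer called, CASP6 was newly called, and DIABLO has no GC value and was not in that fit. TNFRSF1A in KO2 against WT, not called at -0.08, turned to 0.09 with the GC trend removed (adjusted p = 0.018; 0.0139 with the replicate block). TRADD in KO2 against WT, not called at -0.15, turned to 0.31 (adjusted p = 0.0187; 0.0204 with the block). With the GC trend removed, BCL2L2 was called higher in KO1 (0.23, adjusted p = 0.00054), CASP9 higher in KO2 (0.15, adjusted p = 0.0382) and PMAIP1 lower in KO2 (-0.16, adjusted p = 0.00319). No called change of a member reversed its sign in any setting. Of 64 called changes in the 3 comparisons, 14 lost the call in some setting, 11 of them on leaving out 1 library, and 17 of 38 uncalled changes were called in some setting. Leaving out 1 library gave 11 to 15 members higher and 4 to 6 lower in KO1 against WT, and 9 to 13 higher in KO2 against WT, with 9 without KO2 replicate 1.

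Replicate numbers are shared across the groups, but same-numbered libraries did not deviate together (correlations from -0.10 to 0.05). With so few libraries per group, this check cannot exclude a shared culture day or batch. With the replicate block, 13 members were higher and 5 lower in KO1 against WT, 11 higher and 9 lower in KO2 against WT, and 13 higher and 11 lower in KO1 against KO2. Depth limits BIK, BAD, TNFSF10 and HRK, whose values rest on few reads.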
